A study of Mus musculus with 8 samples.

Results

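The clustered histone genes encode the proteins that package DNA into chromatin. They were taken as all entries of the footprint table whose symbol begins with Hist1h, Hist2h, Hist3h or Hist4h, which gave 68 of 23156 genes. By protein type these were 6 genes of the linker histone H1 and 18 H2A, 19 H2B, 12 H3 and 13 H4 genes of the core histones, with 1 annotated pseudogene among the H2B entries (Hist3h2bb-ps). In GRCm38 coordinates, 54 of them lie in the Hist1 cluster on chromosome 13, 10 in the Hist2 cluster on chromosome 3, 3 in the Hist3 cluster on chromosome 11 and 1, Hist4h4, on chromosome 6.

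H2A, H2B, H3 and H4 form the protein core around which DNA is wound, and H1 binds the linker DNA between cores. Most clustered genes have no introns, and their mRNAs end in a conserved stem-loop in place of a poly(A) tail. The stem-loop is bound by the protein Slbp, which takes part in the processing, translation and decay of these mRNAs. In dividing cells the mRNAs accumulate in S phase, when new chromatin is built, whereas naive T cells are mostly resting.

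Ribosome footprints, the short mRNA fragments that a ribosome shields from nuclease, were sequenced from naive CD4+ T cells of Mettl3 KO and WT mice, all on the C57BL/6 background. Mettl3 is the catalytic subunit of the enzyme that writes N6-methyladenosine (m6A) on mRNA. There were 2 footprint libraries from Mettl3 KO mice and 2 from WT mice, and cells of both genotypes were exposed to cycloheximide, an elongation inhibitor, at 0.1 mg/ml for 1 min. The labels give neither the allele and any Cre driver nor the age of the mice, nor whether each duplicate is a mouse of its own. The p-values therefore reflect how far these libraries vary, and that variation may be technical. Input RNA libraries were not analysed here, so a change in footprints can be a change in mRNA amount, in ribosome occupancy or in both. Fewer cells of a type and less RNA per cell likewise cannot be told apart in these bulk samples.

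Levels are in FPKM, that is, fragment counts scaled to the length of the annotated gene and to the size of the library. Mettl3 had 2.44 and 3.32 FPKM in the KO libraries, against 24.5 and 21.1 FPKM in the WT libraries, which is the direction the labels give. The size of a single read put the depth at about 5890000 and 2950000 reads in KO, against 5890000 and 3550000 reads in WT, so that 1 read on a model of 500 bases was worth 0.340 to 0.678 FPKM. The CD4 T cell markers in the table were present at summed levels of 493 and 533 FPKM in KO and 508 and 531 FPKM in WT. These sums hold differences in both directions. Of 7 tested, none passed the threshold. Il7r had 146 and 192 FPKM in KO, against 109 and 95.9 FPKM in WT. Both KO libraries were below both WT libraries in 4 (Cd3d, Cd3g, Lck and Zap70), as in 34.6% of all genes tested. Defining markers of B cells (Pax5), NK cells (Ncr1), neutrophils (S100a9) and thymocytes (Rag1) were listed at 0 in all 4 libraries. Of the other lists, myeloid genes summed to 15.7 and 21.6 FPKM in KO and 28.2 and 27.4 FPKM in WT, with 1 of 4 tested (Tyrobp) lower, and erythroid genes to 10.2 and 45.4 FPKM in KO and 6.05 and 22.0 FPKM in WT; their part in the histone levels was not tested. Small RNA genes held 55.7% and 49.4% of summed FPKM in KO, against 43.7% and 37.0% in WT, and were left out of the fit, which covered the 9272 genes that averaged 1 FPKM or more. The median log2 fold change over those genes was -0.10, and subtracting from each library its median log2(FPKM + 1) moved it to -0.00812.

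The stem-loop that sets these mRNAs apart is shown here for 1 member of each type, each a gene whose level is given further on. The bases lie just after the stop codon in GENCODE M21 transcripts (GRCm38), given 5′ to 3′ on the mRNA strand as DNA letters, with the stem and loop in capitals.
Hist1h3c (H3): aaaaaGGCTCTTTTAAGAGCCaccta
Hist1h2be (H2B): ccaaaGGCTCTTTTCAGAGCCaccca
Hist1h4f (H4): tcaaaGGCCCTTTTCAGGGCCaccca
Hist2h2ac (H2A): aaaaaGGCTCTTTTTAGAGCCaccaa
Hist1h1c (H1): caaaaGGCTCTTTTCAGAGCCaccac
A search on the sense strand for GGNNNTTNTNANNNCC with 6 paired positions, G-T pairs allowed, within 150 bases of the stop found it in 43 of the 48 members with at least 60 annotated bases there (89.6%). The same search found it in 29 of 18017 coding genes (0.161%), of which 23 carry a histone symbol. By type the search matched 4 of 4 H1, 10 of 10 H2A, 9 of 14 H2B, 9 of 9 H3 and 11 of 11 H4 members with such annotation. All 5 without a match were H2B genes, among them Hist1h2bq and Hist1h2br; no match says only that the pattern was not in that window.

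Of the 68 members, 64 passed the filter. The 4 that did not were Hist1h1t and Hist1h2aa, both known as testis genes, and Hist2h2aa2 and Hist2h3c1, every 28-base coding stretch of which also occurs in a neighbouring copy. Footprints of 11 members were higher and of 1 lower in Mettl3 KO at an adjusted p under 0.05 in limma, and 52 did not pass. Over all genes tested, 2.22% were called, 1.56% as higher and 0.658% as lower. The calls followed the protein type. Of the members that passed the filter, 6 of 11 H3 genes, 4 of 19 H2B genes and 1 of 13 H4 genes were higher, 1 of 16 H2A genes was lower, and none of 5 H1 genes passed.

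The fold changes also split by type. On the log2(FPKM + 1) scale, the median was 0.75 over the H3 genes and 0.79 over the H2B genes, against -0.06 over H2A, -0.08 over H4 and -0.02 over H1. Both KO libraries were above both WT libraries in 11 of 11 H3 and 14 of 19 H2B genes, but in 2 of 16 H2A, 2 of 13 H4 and 1 of 5 H1 genes. Among all genes tested, 16.3% had both KO libraries above both WT libraries. In either direction, an unadjusted p under 0.05 in limma was reached by 11 H3, 15 H2B, 2 H2A, 3 H4 and 2 H1 genes, and by 18.4% of all genes tested. The 11 H3 fold changes were positive. The counts of the other types include negative ones, such as Hist3h2ba and Hist3h2bb-ps (H2B), Hist2h2ab and Hist3h2a (H2A), Hist1h4m (H4) and Hist1h1c (H1). The genes in these counts are not independent, because near-identical copies of 1 type can take each other's reads. Hist1h2ba, named here after its values were seen, is among both the 14 and the 15 H2B genes. It had 2.20 and 2.56 FPKM in KO, against 0.892 and 0.890 FPKM in WT, so it passed the filter only through its KO libraries. Hist3h2bb-ps, among the 15, had a KO mean of 0.989 FPKM and passed only through its WT libraries.

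**Figure D1:**
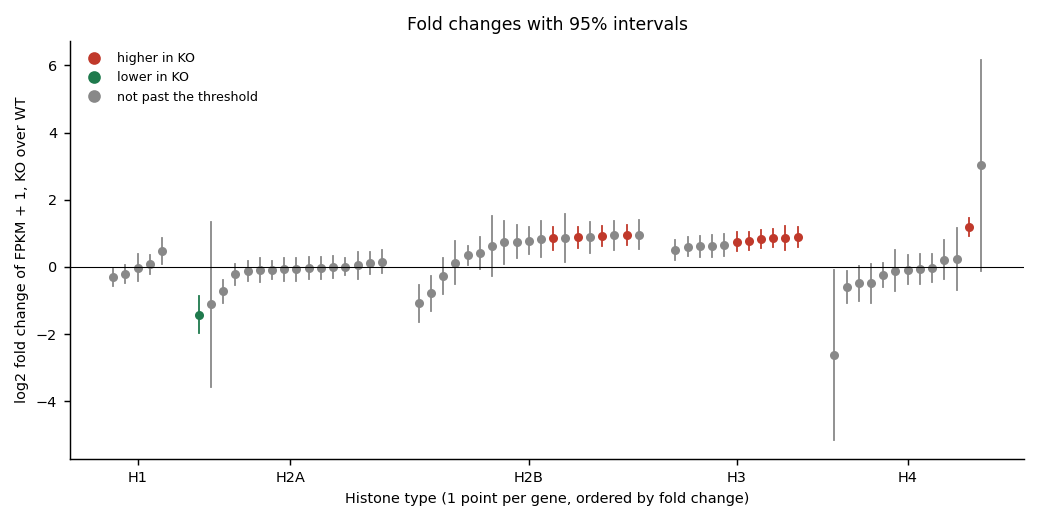
Log2 fold change of FPKM + 1 (Mettl3 KO over WT, vertical axis) for the 64 members tested, 1 point per gene with its 95% interval, grouped by histone type and ordered by fold change. The 11 H3 points lie between 0.51 and 0.89, whereas H2A and H1 points lie mostly around 0 and 2 H4 points with wide intervals lie far from it.

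The calls were sensitive to the number of libraries. When any single library was left out, 0 to 2 members were called higher and none lower, and with no variance trend the count of higher members was 1. Directions were steadier. In each of the 4 fits without a library, all 12 called members kept the sign of their fold change, and the H3 median stayed at 0.71 or above in every alternative run.

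FPKM was summed over each type, which depends less on how reads were divided among its copies than single genes do. Because FPKM divides by gene length and copies differ in length, some dependence remains. H3 summed to 792 and 853 FPKM in KO libraries, against 496 and 485 FPKM in WT libraries. H2B summed to 560 and 607 FPKM in KO, against 343 and 405 FPKM in WT. For both types the 2 KO libraries were above the 2 WT libraries, by a ratio of means of 1.68 for H3 and 1.56 for H2B. Weighting each gene by its GENCODE M21 transcript length before summing, added after the data were seen, gave 1.66 for H3 and 1.61 for H2B. It removes the effect of unequal lengths only as far as these lengths match those the authors used, which are not given.

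H4, the type with the highest sum, had 1040 and 945 FPKM in KO and 770 and 979 FPKM in WT, so the genotypes overlapped. H2A had 667 and 621 FPKM in KO, against 679 and 706 FPKM in WT, and H1 had 404 and 436 FPKM in KO, against 462 and 485 FPKM in WT. The H2A and H1 sums were below WT in both KO libraries as deposited, with ratios of 0.929 and 0.887. Dividing each library by the median of the tested genes gave 1.01 for H2A and 0.956 for H1, so no direction is given for H2A. Under the same division the H3 and H2B ratios were 1.81 and 1.68. Together the histones took 0.984% and 0.991% of summed FPKM outside small RNAs in KO, against 0.756% and 0.813% in WT.

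**Figure D2:**
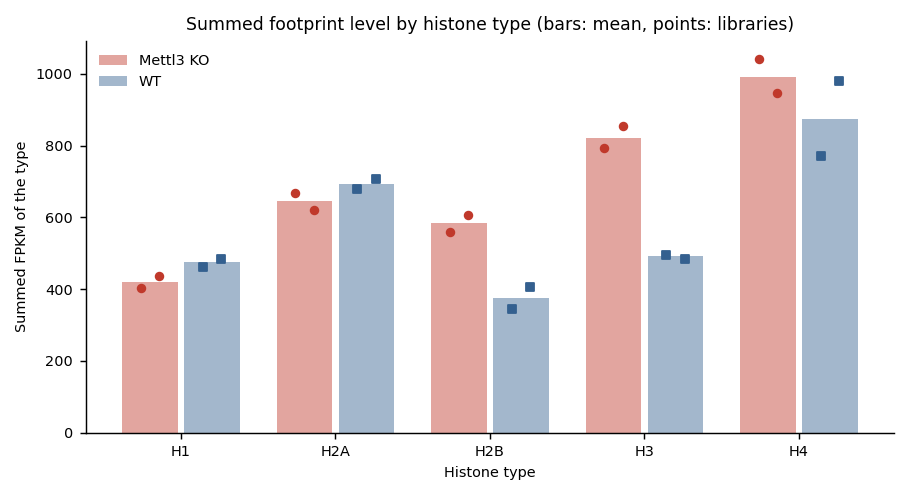
Summed FPKM of each histone type (vertical axis), with bars for the mean of 2 libraries and points for the libraries, Mettl3 KO left of WT. H3 and H2B points of the genotypes are apart, at 792 and 853 against 496 and 485 for H3, while H4 points overlap.

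Because each nucleosome core holds equal numbers of all core histones, the ratios between types within a library were also taken. They count the clustered genes only, so they do not give the balance of all core histones. The variant genes outside the clusters are left out. Among these, H3f3a had 245 and 216 FPKM in KO, against 325 and 303 FPKM in WT. H3f3b had 295 and 242 FPKM in KO, against 311 and 322 FPKM in WT. Ratios with variant genes added were not taken. Scaling a whole library leaves these ratios as they are. H3 over H4 was 0.765 and 0.903 in KO, against 0.644 and 0.495 in WT. H2B over H2A was 0.839 and 0.979 in KO, against 0.505 and 0.574 in WT. H3 over H2A was 1.19 and 1.37 in KO, against 0.730 and 0.687 in WT. In each of these ratios both KO libraries were above both WT libraries, also with the sums weighted by transcript length. H1 over the sum of the core histones was 0.132 and 0.144 in KO, against 0.202 and 0.188 in WT, and there both KO libraries were lower.

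H3 carries the tail lysines on which many chromatin marks are set. Hist1h3h had 69.2 and 69.9 FPKM in KO, against 37.4 and 38.2 FPKM in WT. Hist1h3g had 66.4 and 68.7 FPKM in KO, against 37.4 and 37.8 FPKM in WT. In both genes the replicates lay close together and the genotypes far apart. On the log2 scale Hist1h3h rose by 0.86 ± 0.12 (standard error of the limma fit, adjusted p = 0.0163) and Hist1h3g by 0.83 ± 0.12 (adjusted p = 0.0177).

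The largest fold change among H3 genes was that of Hist1h3c, with 87.8 and 99.3 FPKM in KO, against 47.6 and 52.5 FPKM in WT (0.89 ± 0.13, limma adjusted p = 0.0181). Hist1h3e, the second most abundant H3 gene, had 100.3 and 106 FPKM in KO, against 60.4 and 59.99 FPKM in WT (0.77 ± 0.11, adjusted p = 0.0203). Hist1h3d had 85.1 and 84.4 FPKM in KO, against 51.6 and 48.2 FPKM in WT (0.75 ± 0.12, adjusted p = 0.0240). In all 3 the genotypes were clearly apart. Hist1h3i varied more, with 65.0 and 80.0 FPKM in KO, against 42.7 and 35.8 FPKM in WT (0.87 ± 0.15, adjusted p = 0.0418).

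The remaining 5 tested H3 genes had positive fold changes that did not pass the threshold over all genes. Hist1h3b, the most abundant, had 105.7 and 119 FPKM in KO, against 76.0 and 71.3 FPKM in WT (0.60, limma adjusted p = 0.0588). Hist1h3f had the smallest fold change of the type, with 40.7 and 45.3 FPKM in KO, against 30.3 and 29.5 FPKM in WT (0.51, adjusted p = 0.105). The libraries of the genotypes did not overlap in either gene. The H3 genes of the Hist2 cluster on chromosome 3 had the same direction. Hist2h3b had 43.0 and 42.1 FPKM in KO, against 26.4 and 28.6 FPKM in WT (0.61, adjusted p = 0.0640), and Hist2h3c2 had 55.7 and 57.2 FPKM in KO, against 32.6 and 38.4 FPKM in WT (0.66, adjusted p = 0.0590).

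The H3 copies are so alike that a footprint often cannot be placed on 1 of them. Between the 11 H3 genes with a coding sequence of 411 bases, identity was 93.7% to 99.8% over 55 pairs, with a median of 97.6%. Between 80.2% and 100% of the 28-base coding stretches of an H3 gene occur in another member as well, and 28 bases is about the length of a footprint. The 60 coding bases with the most differences, bases 346 to 405 counted from the start codon, are shown for 6 copies, with capitals where a copy differs from Hist1h3d (GENCODE M21 transcripts, GRCm38).
Hist1h3d: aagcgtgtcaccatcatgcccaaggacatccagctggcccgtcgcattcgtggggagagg
Hist1h3i: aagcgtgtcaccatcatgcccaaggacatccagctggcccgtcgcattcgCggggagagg
Hist1h3g: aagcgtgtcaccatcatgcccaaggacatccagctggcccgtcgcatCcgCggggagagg
Hist1h3h: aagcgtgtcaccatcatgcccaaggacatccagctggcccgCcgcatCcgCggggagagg
Hist1h3c: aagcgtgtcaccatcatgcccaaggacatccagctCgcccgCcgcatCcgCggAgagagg
Hist2h3b: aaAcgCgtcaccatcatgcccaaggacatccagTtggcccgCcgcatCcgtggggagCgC
The values of single H3 genes are therefore uncertain, and the 6 calls are not 6 separate observations. A comparison that rests less on shared stretches is that between clusters. Stretches shared with a member of another cluster made up 22.4% to 31.8% of each H3 gene. The 9 H3 genes of Hist1 summed to 693 and 753 FPKM in KO, against 437 and 418 FPKM in WT, a ratio of 1.69. The 3 of Hist2 summed to 98.8 and 99.3 FPKM in KO, against 59.1 and 67.0 FPKM in WT, a ratio of 1.57.

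H3 coding sequences also differed from those of the other types in a short motif. GGACT is a common form of the motif in which m6A is found, and it was searched on the sense strand of the coding sequences. It occurred in 12 of 12 H3 genes and in 0 of 6 H1, 0 of 18 H2A, 0 of 18 H2B and 0 of 13 H4 genes. In whole transcripts, with untranslated bases, it also occurred in 3 of 6 H1, 2 of 18 H2A, 2 of 18 H2B and 4 of 13 H4 genes. In the first 312 coding bases, the length of an H4 gene, 6979 of 21138 coding genes (33.0%) had it, as did 11 of 12 H3 genes (91.7%). The site of the H3 genes starts at coding base 231 (366 in the longer model of Hist2h3c1) and is shown with 12 bases on each side, GGACT in capitals, beside the same positions of the variant genes H3f3a and H3f3b, which encode the replication-independent H3.
Hist1h3c: cgagatcgcgcaGGACTtcaagaccgacc
Hist2h3b: cgagatcgcgcaGGACTtcaagacggacc
H3f3a: agaaattgctcaGGACTtcaaaacagatc
H3f3b: ggagatcgcccaggatttcaaaaccgact
The letters are a description of shared sequence. Methylation was not measured in these libraries, and whether any of these sites carries m6A was not tested. The 12 H3 sites are 1 shared position in near-identical copies. How the motif relates to the fold change of any histone type was not tested. H3f3a had 245 and 216 FPKM in KO, against 325 and 303 FPKM in WT (-0.45, limma adjusted p = 0.106).

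**Figure D3:**
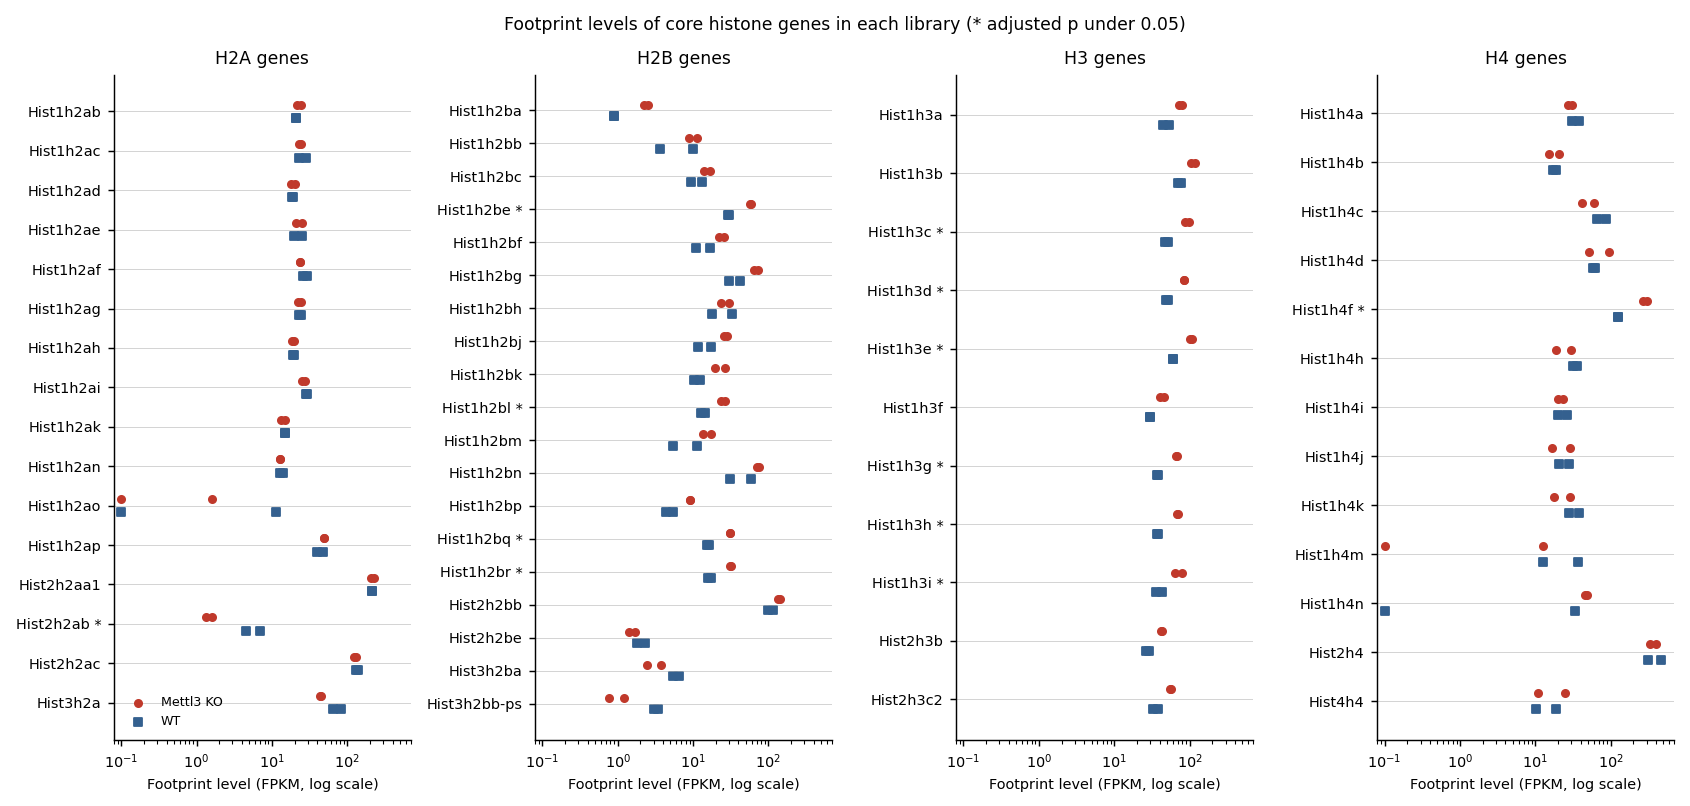
Footprint level (FPKM, logarithmic axis) of each tested core histone gene in each library, with Mettl3 KO circles above WT squares, values under 0.1 FPKM drawn at 0.1, and an asterisk at an adjusted p under 0.05. In all 11 H3 genes and in 14 of 19 H2B genes the KO circles lie right of the WT squares, while most H2A symbols overlap.

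H2B pairs with H2A in the dimers that flank the H3 and H4 tetramer. Hist1h2be had 58.5 and 57.6 FPKM in KO, against 30.4 and 28.8 FPKM in WT. Hist1h2bl had 23.5 and 26.9 FPKM in KO, against 12.8 and 14.3 FPKM in WT. In both the KO libraries were close to each other and apart from the WT libraries. On the log2 scale Hist1h2be rose by 0.95 ± 0.12 (limma, adjusted p = 0.0145) and Hist1h2bl by 0.85 ± 0.15 (adjusted p = 0.0389). The annotated model of Hist1h2be runs over exons of Hist1h1e and Gm11398 on the same strand, so its value may hold reads of either.

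Hist1h2bq and Hist1h2br have identical coding sequences and are read as 1. Their sum was 61.9 and 62.7 FPKM in KO, against 31.2 and 33.8 FPKM in WT (0.92 ± 0.12, limma adjusted p = 0.0140 with identical copies merged, an alternative chosen after the data were seen). Singly, Hist1h2bq had 30.9 and 31.0 FPKM in KO, against 15.4 and 16.4 FPKM in WT (adjusted p = 0.0181). Hist1h2br had 31.0 and 31.8 FPKM in KO, against 15.8 and 17.4 FPKM in WT (adjusted p = 0.0223). Since either copy can take the other's reads, their like values alone and together are not separate observations.

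Other Hist1 H2B genes had fold changes of similar size without passing the threshold. Hist1h2bk had the highest fold change of the type, with 19.8 and 26.2 FPKM in KO, against 10.2 and 12.4 FPKM in WT (0.96, limma adjusted p = 0.0502). Hist1h2bn had 69.9 and 75.4 FPKM in KO, against 31.4 and 59.6 FPKM in WT (0.73, adjusted p = 0.208), with WT libraries far apart. Hist1h2bh had 23.6 and 29.6 FPKM in KO, against 17.7 and 32.7 FPKM in WT (0.13, adjusted p = 0.835), and its genotypes overlapped. Over the 15 Hist1 genes the H2B sum was 421 and 460 FPKM in KO, against 232 and 277 FPKM in WT, a ratio of 1.73.

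H2B genes outside Hist1 had smaller or opposite differences. Hist2h2bb, the most abundant H2B gene and the least shared, with 10.5% of its coding stretches found in another member, had 133 and 142 FPKM in KO, against 100.2 and 116 FPKM in WT (0.34, limma adjusted p = 0.200). Its KO libraries were above its WT libraries, by less than in most Hist1 genes. Hist2h2be was low, with 1.43 and 1.68 FPKM in KO, against 1.81 and 2.33 FPKM in WT (-0.26, adjusted p = 0.590). Hist3h2ba had 3.71 and 2.44 FPKM in KO, against 5.48 and 6.45 FPKM in WT (-0.79, adjusted p = 0.124). The pseudogene Hist3h2bb-ps had 0.773 and 1.21 FPKM in KO, against 2.996 and 3.41 FPKM in WT (-1.09, adjusted p = 0.0706). Both Hist3 entries were lower in each KO library than in each WT library.

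Most H2A genes differed little between genotypes, including the 2 most abundant ones, in Hist2. Hist2h2aa1, the most abundant, had 225 and 204 FPKM in KO, against 214 and 211 FPKM in WT (0.01 ± 0.11, 95% interval -0.25 to 0.27). Hist2h2ac had 129 and 123 FPKM in KO, against 138 and 131 FPKM in WT (-0.09, interval -0.35 to 0.17). Both intervals lie below the median fold change of the H3 genes. Hist1h2ap had the highest fold change of the type, with 49.0 and 48.8 FPKM in KO, against 48.3 and 39.6 FPKM in WT (0.16, limma adjusted p = 0.592).

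The single member that fell was Hist2h2ab, a weakly read H2A gene, with 1.59 and 1.34 FPKM in KO, against 4.52 and 6.89 FPKM in WT. In the KO libraries 1 read on a model of 500 bases was worth 0.340 and 0.678 FPKM, so its KO values rest on few reads. Its KO libraries were below its WT libraries, with a log2 difference of -1.42 ± 0.24 (limma, adjusted p = 0.0324). The call was lost with no filter on low genes (limma adjusted p = 0.255) and with no variance trend (0.0581). Hist2h2ab overlaps Gm15444 on the opposite strand, and since the use of strand is not stated, reads of the partner cannot be told apart. Hist3h2a had 45.1 and 43.6 FPKM in KO, against 65.5 and 82.5 FPKM in WT (-0.72 ± 0.15, adjusted p = 0.0590), also without overlap between genotypes. Its model overlaps Trim17 on the same strand. The 3 Hist3 entries, within 0.00791 Mb of each other, therefore all had lower levels in both KO libraries than in both WT libraries, as did 34.6% of all genes tested, and none passed the threshold.

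H2A and H2B genes often stand head to head and share the DNA between them. There were 12 such pairs, with 175 to 305 bases between the annotated starts, and both partners were tested in 11. The fold change of the H2B gene was above that of its H2A neighbour in 10 of the 11. Over these pairs the H2B fold changes had a median of 0.85 and ranged from -0.26 to 0.96, while those of H2A had a median of -0.06 and ranged from -1.12 to 0.16. The exception was Hist2h2be with Hist2h2ac. The pairs are not separate observations, since Hist1h2ao and Hist1h2ap, like Hist1h2bq and Hist1h2br, have identical coding sequences and other copies share stretches. The lowest H2A value, -1.12 with a standard error of 1.05, is that of Hist1h2ao, and merged with Hist1h2ap the fold change was 0.00377. In the pair with the called gene Hist1h2bl, the neighbour Hist1h2ai, named for its position, had 27.1 and 25.3 FPKM in KO, against 29.1 and 28.2 FPKM in WT (-0.12, limma adjusted p = 0.656).

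**Figure D4:**
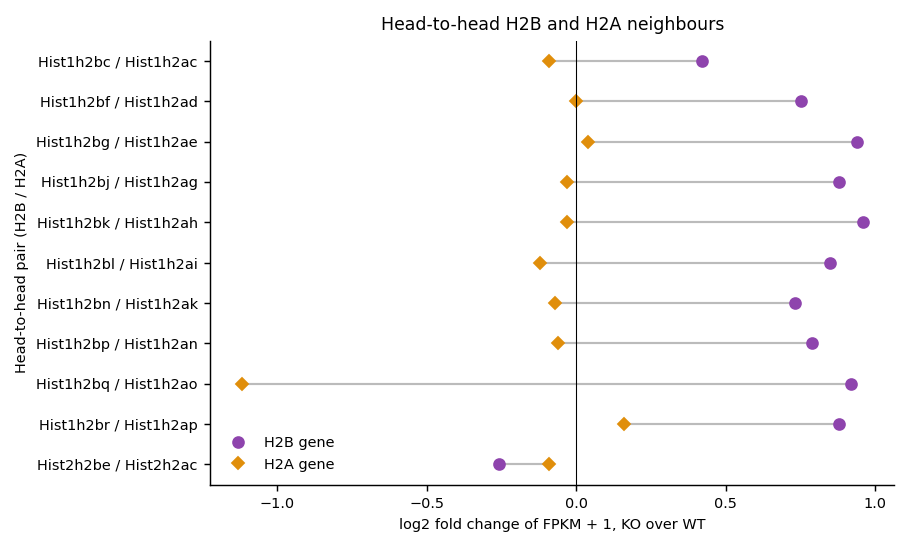
Log2 fold change of FPKM + 1 (Mettl3 KO over WT, horizontal axis) of both genes in 11 head-to-head pairs, with H2B as circles, H2A as diamonds and a line joining neighbours. H2B lies right of its H2A neighbour in 10 pairs, and the far-left diamond is Hist1h2ao, whose reads were split unevenly with an identical copy.

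The shared upstream DNA is printed for that pair as the 140 bases before the start of Hist1h2bl, chr13:21716184-21716323 on the minus strand (RefSeq, GRCm38.p6), with CCAAT and its reverse complement ATTGG in capitals.
Hist1h2bl: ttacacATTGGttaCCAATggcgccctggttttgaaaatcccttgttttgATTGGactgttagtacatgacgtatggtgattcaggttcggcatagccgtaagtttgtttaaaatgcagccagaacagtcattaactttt
CCAAT on either strand was in the promoter windows, 250 bases before to 50 after the start, of 100% of the matched H1 (6), H2A (18), H2B (16) and H3 (10) genes but 25% of the 12 H4 genes, against 37.9% of 27025 promoters. The octamer ATTTGCAT, a motif known from H2B promoters, was on either strand in 38.9% of H2A and 37.5% of H2B promoters, in none of the H1, H3 and H4 promoters and in 1.75% of all. TATAAA on the sense strand was in 66.7% of H1 and H4, 55.6% of H2A, 40% of H3 and 25% of H2B promoters and in 8.88% of all. None of these motifs was found in H3 and H2B promoters alone.

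H4 binds H3 in the tetramer at the centre of the nucleosome. Hist1h4f had 307 and 268 FPKM in KO, against 124 and 126 FPKM in WT. Its KO libraries were above its WT libraries, and on the log2 scale it rose by 1.19 ± 0.12 (limma, adjusted p = 0.00648), the lowest adjusted p of any member. Its call held in 2 of the 4 fits that left out a library. Of its 28-base coding stretches, 69.8% occur in another member. Without it, the other 12 H4 genes summed to 728 and 677 FPKM in KO, against 646 and 854 FPKM in WT.

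Hist2h4, the most abundant member, had 333 and 405 FPKM in KO, against 315 and 469 FPKM in WT (-0.07 ± 0.20, 95% interval -0.52 to 0.39). Replicates of Hist2h4 differed more than genotypes did. Hist4h4, the lone gene on chromosome 6, had 24.4 and 10.7 FPKM in KO, against 10.1 and 18.7 FPKM in WT (0.22, limma adjusted p = 0.796), and its genotypes overlapped. Hist1h4m and Hist1h4n had the lowest and the highest fold change of all members, -2.61 and 3.02, with standard errors of 1.07 and 1.34.

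Those extremes belong to 2 genes with identical coding sequences, and they show how the authors' estimates divide reads among copies. Hist1h4m had 12.6 and 0.00118 FPKM in KO, against 12.6 and 36.3 FPKM in WT. Hist1h4n had 46.2 and 48.6 FPKM in KO, against 33.3 and 0.0336 FPKM in WT. In KO 2 nearly all reads were given to Hist1h4n and in WT 2 nearly all to Hist1h4m. Their sum was 58.7 and 48.6 FPKM in KO, against 45.9 and 36.3 FPKM in WT (0.38 ± 0.16, limma adjusted p = 0.274). Hist1h2ao and Hist1h2ap had a combined level of 50.6 and 48.8 FPKM in KO and 48.3 and 50.9 FPKM in WT (adjusted p = 0.991), although Hist1h2ao alone was listed between 0.0000674 and 11.3 FPKM. Hist2h2aa2 and Hist2h3c1 were listed below 0.02 FPKM throughout, with the reads on Hist2h2aa1 and Hist2h3c2. With such copies merged, 12 members were called higher and 1 lower.

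**Figure D5:**
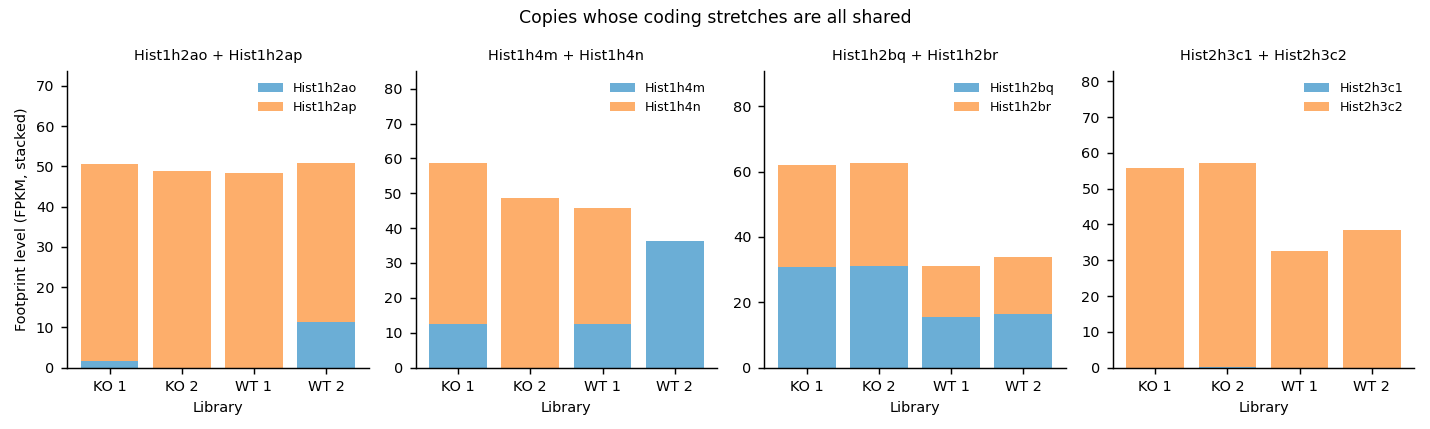
Footprint level (FPKM, stacked bars) of 4 pairs of copies whose coding stretches are all shared, in KO 1, KO 2, WT 1 and WT 2. The split between Hist1h4m and Hist1h4n varies from library to library, while Hist1h2bq and Hist1h2br split evenly and their stacked total is 61.9 and 62.7 in KO against 31.2 and 33.8 in WT.

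H1 genes are longer and less alike, with a median of 17.7% of their 28-base coding stretches found in another member. Hist1h1c had 173 and 182 FPKM in KO, against 214 and 227 FPKM in WT (-0.31 ± 0.11, limma adjusted p = 0.191). Hist1h1e had 119 and 133 FPKM in KO, against 150 and 144 FPKM in WT (-0.22, adjusted p = 0.362). Hist1h1b had 24.6 and 24.5 FPKM in KO, against 15.2 and 20.04 FPKM in WT (0.47, adjusted p = 0.197). The genotypes did not overlap in these 3 genes, with KO lower in the 2 abundant ones and higher in Hist1h1b, but none passed the threshold.

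Outside the clusters lie histone variant genes, most of which have polyadenylated mRNAs that are made throughout the cell cycle. Of 8 tested, none passed the threshold, and their median fold change was -0.10, equal to that of all genes. H3f3b had 295 and 242 FPKM in KO, against 311 and 322 FPKM in WT (-0.24, limma adjusted p = 0.356). H3f3a and H3f3b, the 2 of highest level, were thus lower in both KO libraries, while H2afz, chosen here after its values were seen, had 186 and 200.5 FPKM in KO, against 165 and 168 FPKM in WT (0.22, adjusted p = 0.341). The clustered H3 genes and the H3 variant genes thus had fold changes of opposite sign. The difference was not tested.

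Among 25 tested genes of a list for histone mRNA synthesis, processing and decay, 1 rose and none fell, and the median fold change was -0.07. The list includes Coasy, Nudt16l1 and Yy1, for which no role in histone mRNA is claimed here. The gene that rose was Lsm10, a protein of the U7 particle that cuts histone pre-mRNA, with 19.1 and 22.4 FPKM in KO, against 8.91 and 8.74 FPKM in WT (1.14 ± 0.15, limma adjusted p = 0.0151). Its call was lost in every fit that left out a library. Slbp, the stem-loop binding protein, had 33.9 and 47.0 FPKM in KO, against 43.7 and 34.5 FPKM in WT (0.04, adjusted p = 0.934), and its genotypes overlapped. Srrt, which links the cap-binding complex to RNA processing, had 32.7 and 31.1 FPKM in KO, against 35.2 and 34.0 FPKM in WT (-0.11, adjusted p = 0.672).

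Histone chaperones escort new histones to DNA. None of 24 tested passed the threshold, the median was -0.15, and both KO libraries were below both WT libraries in 12 and above in 2. Over all genes tested, 34.6% were below and 16.3% above in this way, and the median was -0.10. Npm1 had 280 and 314 FPKM in KO, against 316 and 400.1 FPKM in WT (-0.26, limma adjusted p = 0.373). Set had 91.6 and 95.3 FPKM in KO, against 126 and 148 FPKM in WT (-0.54, adjusted p = 0.0872).

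Since these histone genes follow the cell cycle, a list of S phase and proliferation genes was read beside them. None of 25 tested passed the threshold, the median was 0.14, and both KO libraries were above both WT libraries in 10 and below in 1. Among all genes tested these shares were 16.3% and 34.6%. Of the 10, Mki67, Tk1, Ccna2 and Birc5 averaged under 1 FPKM in WT, so they passed the filter only through their KO libraries. The list summed to 280 and 311 FPKM in KO, against 266 and 306 FPKM in WT. Tubb5, a tubulin and the most abundant, had 76.9 and 75.3 FPKM in KO, against 67.1 and 78.4 FPKM in WT (0.07, limma adjusted p = 0.811). Pcna, the clamp of the replication fork, had 34.2 and 43.8 FPKM in KO, against 50.4 and 54.0 FPKM in WT (-0.42, adjusted p = 0.207). Mki67 and Top2a, markers of cycling cells chosen after their values were seen, were low but apart. Mki67 had 2.27 and 3.64 FPKM in KO, against 0.599 and 0.925 FPKM in WT (1.15, adjusted p = 0.0895), and Top2a had 5.67 and 6.65 FPKM in KO, against 2.87 and 3.33 FPKM in WT (0.80, adjusted p = 0.0870). The part of cycling cells in the H3 and H2B levels was not tested.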

How the data were processed

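Footprint libraries of naive CD4+ T cells were analysed, 2 from Mettl3 KO and 2 from WT mice, grouped by their titles. Per the file headers, the authors deposited FPKM for each of the 4 libraries. Per the submitters' processing notes, TopHat, Cuffdiff and the build mm10 (GRCm38) were used. As to the annotation, the use of strand, the placement of reads with several matches and the removal of ribosomal RNA, each was not given in the sources used here. No read totals accompany FPKM, so depth was estimated from the values of single reads, and no counts were rebuilt.

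By symbol, 1210 small RNA genes were dropped, and the 9272 genes that averaged 1 FPKM or more were kept. The genotypes were compared on log2(FPKM + 1) by limma (version 3.58.1, R 4.3.3), two-sided, using empirical Bayes with a trend and 2 residual plus 5.2 prior degrees of freedom. P-values were adjusted after Benjamini and Hochberg over the 9272 genes, and calls have an adjusted p under 0.05. A fold change on this scale understates the change of low genes. Means over 2 libraries carry the standard error of the fit and 95% intervals. Sums, ratios and medians were not tested. Other steps ran in Python 3.11.15 (pandas 2.3.3, numpy 2.4.6), and plots in matplotlib 3.10.9. The fit was tested on simulated data.

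Positions, transcripts and overlaps came from GENCODE M21 and promoters from RefSeq, matched by symbol. Members and lists were chosen with earlier results of these data known. Genes named are Mettl3, called members, the 2 of highest mean and the extreme fold changes at a mean of at least 5 FPKM in each type, Hist2, Hist3 and Hist4 members, and in other lists up to 4 called genes and the 2 of highest mean. Others are said to be chosen by position or after their values were seen. Alternatives changed the pseudocount, filter, scaling, small RNA genes, variance trend, replicate block, length weighting of sums and each library in turn. Where a library was left out, the single one remaining was taken to vary as the other genotype does.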

Additional observations from a re-analysis of the deposited data

How the results depend on the processing

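The pseudocount (0.1 or 5), scaling and restriction to protein-coding genes kept all 12 called members. The 206 genes called became 0 with no filter (2061 at an unadjusted p under 0.05), 83 with small RNA genes kept, 68 with no variance trend and 1 to 57 without a library. Members higher, 11 in the main comparison, numbered 0 with no filter (29 members at an unadjusted p under 0.05), 18 at a mean of at least 5 FPKM, 19 with libraries centred on their medians, 4 with small RNA genes kept, 1 with no trend and 0 to 2 without a library. The 1 lower member was not called (0) with no filter, small RNA genes kept, no trend or any library left out. The called gene of the mRNA processing list was lost (0) with no filter, no trend and any library left out, and the S phase list had 1 with centred libraries. Centring gave 206 higher and 50 lower genes, against 145 and 61 as deposited. The H2B median was 0.62 with a pseudocount of 5, and without a library it ranged from 0.65 to 0.91, that of all members from 0.03 to 0.22 and that of H1 from -0.19 to 0.12. Summed ratios were 1.77 for H3 after rescaling without small RNAs and, divided by library medians, 0.956 (H1), 1.01 (H2A), 1.81 (H3) and 1.29 (all). Weighted by transcript length they were 0.858 for H2A and 1.09 for all. Fold changes of uncalled members changed sign with centring for Hist2h2ac (0.00303) and Hist2h4 (0.03). Without a library they did so for Hist2h2aa1 (-0.06 without KO 1, -0.00212 without WT 2, range to 0.08), Hist2h4 (0.07 without KO 1, 0.22 without WT 2, range from -0.35), Hist4h4 (-0.34 without KO 1, -0.19 without WT 1, range to 0.78) and Hist1h2bh (-0.03 without KO 2, -0.30 without WT 1, range to 0.55). The replicate numbers are not said to mark a shared batch, and the correlation of same-numbered deviations was -0.0925. With the replicate as a block, 170 genes were called, with 11 members higher and 1 lower, of which Hist1h2bk (adjusted p = 0.034) was gained, while Hist1h3i (0.0666) was not called. The protein-coding, merged-copy and length-weighted alternatives were chosen after seeing the data. The causes were not tested.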
